A study of Mus musculus with 3 samples.

Results

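The epidermal growth factor (EGF) family and the neuregulins are ligands of the ERBB receptors. Of these, 10 were followed here in the cells of mouse glioblastoma (GBM): Tgfa, Hbegf, Btc, Egf, Areg, Ereg, Nrg1, Nrg2, Nrg3 and Nrg4. They were chosen by name as rows of the count table, and all 10 had a row among 50262 genes. The tumors were made in adult mice of both sexes and mixed background that carried conditional human EGFR, deletion of Cdkn2a and a conditional luciferase reporter. A lentivirus that expresses Cre was injected into the striatum, so recombination depended on which cells the virus reached, and whether the virus also carried a TGFα insert in these animals is not given in the sources used here. CD45+ (leukocyte) and CD45- cells were sorted from tumors at the early, medium and late stages (late is called large in the annotation), and both sorts came from the same tumors. Each stage held 1 tumor sample, with cells of several animals pooled where few cells were recovered, and normal brain was not analysed here. The table was made on the inDrop platform, a droplet method in which every mRNA copy receives a random tag, the unique molecular identifier (UMI), so that copies and not reads are counted, and came from 24 libraries in 3 runs, 4 for each stage and sort.

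The ligands of this family are made as membrane proteins with an EGF domain, and most are released when a protease cuts them near the membrane. TGFα, EGF and amphiregulin (Areg) bind EGFR, while HB-EGF (Hbegf), betacellulin (Btc) and epiregulin (Ereg) bind EGFR and ERBB4. The neuregulins bind ERBB3 or ERBB4, ERBB2 has no known ligand of its own and pairs with the others, and in brain the pathway is known for its part in glial and neuronal development and, through amplified EGFR, in GBM.

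Upstream sequences are shown for Tgfa, Areg and Nrg3 because these were the ligands that passed the test between the sorts below. Each is the 120 bases just before the transcript start on the coding strand, from RefSeq on GRCm38.p6, at chr6:86195102-86195221 (plus strand), chr5:91139479-91139598 (plus strand) and chr14:39473089-39473208 (minus strand).
Tgfa: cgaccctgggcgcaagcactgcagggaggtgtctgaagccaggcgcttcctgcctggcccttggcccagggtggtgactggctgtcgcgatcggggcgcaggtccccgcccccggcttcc
Areg: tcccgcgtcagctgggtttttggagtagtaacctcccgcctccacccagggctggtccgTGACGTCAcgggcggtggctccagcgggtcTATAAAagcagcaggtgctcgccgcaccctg
Nrg3: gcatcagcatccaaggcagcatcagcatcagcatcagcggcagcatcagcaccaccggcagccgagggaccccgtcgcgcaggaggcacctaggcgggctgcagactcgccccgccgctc
Capitals mark matches to TGACGTCA (the cyclic AMP response element) and TATAAA (the TATA box), which were searched on both strands of the 250 bases before the start, together with TGAGTCA (the AP-1 element). Areg held TGACGTCA 61 to 54 bases and TATAAA 31 to 26 bases before its start, and these matches do not overlap. Neither the Tgfa nor the Nrg3 window held any of the 3 motifs in these letters. Among 32851 windows of the same length over 27025 genes, 12.4% held TATAAA, 1.55% held TGACGTCA and 4.46% held TGAGTCA. Upstream sequences of the other ligands are not shown.

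In GRCm38 (GENCODE M21) Tgfa lies on chromosome 6 (86195223 to 86275719), and Areg (91139599 to 91148432), Ereg (91074622 to 91093646) and Btc (91357261 to 91402994) lie near each other on chromosome 5. Egf lies on chromosome 3 (129677565 to 129755316), Nrg1 on chromosome 8 (31814551 to 32884029), Nrg3 on chromosome 14 (38368952 to 39473088), Nrg4 on chromosome 9 (55220222 to 55326844), and Hbegf and Nrg2 on chromosome 18. The authors describe mapping to the transcriptome, and counts were per gene, so transcripts, exons and untranslated parts were not told apart. Genes on the opposite strand overlap 7 of the ligands: antisense genes overlap Egf, Ereg, Nrg2 and Nrg3, the protein-coding gene Fbxo22 overlaps Nrg4, a lincRNA and an snRNA gene overlap Nrg1, and Gm43917, a gene model still to be tested (TEC), overlaps Tgfa. These overlaps were found over the whole span of each gene, introns included, and overlap between exons was not examined. Whether counting used strand is not given in the sources used here. It is therefore not known whether the values of these 7 ligands, Tgfa among them, were affected.

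Of 20811 deposited cells 17755 were kept, and the libraries held 62320 to 4229807 UMIs in kept cells. The sums per tumor sample and sort held 5366987 to 10814467 UMIs in 1603 to 5092 cells. Levels are given in UPM, the UMIs of a gene per 1000000 UMIs of all genes in the same cells. Libraries of the same tumor sample and sort may not be separate in their cells. They shared a median of 4.94% of the barcodes of the smaller library (36 pairs, up to 25.7%). For the other 240 pairs of libraries the median was 0.807%. In all, 2217 kept cells (12.5%) carried a barcode shared within a sample and sort, and 85.1% of the shared barcodes fell into 1 class only. How often unrelated cells would fall into 1 class was not examined. Libraries of 1 sample and sort were summed, and results are also given without these cells. Reads from human EGFR, the transgene of the tumor cells, were at 271 UPM in the medium CD45+ sum. They were at 1.85 UPM in the early and 85.0 UPM in the late CD45+ sum. In the CD45- sums they were at 7.30, 704 and 1223 UPM in the early, medium and late samples. The early sums thus held few transgene UMIs, 59 in CD45- and 20 in CD45+ cells.

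The first question was which ligands are found in leukocytes and which in the rest of the tumor. Of the 10 ligands, Tgfa and Nrg3 were lower in CD45+ cells, Areg was higher in CD45+ cells, and Hbegf, Btc, Egf, Nrg1, Nrg2 and Nrg4 passed no threshold. Ereg was not tested, with 6 UMIs in all. Counts were summed for each tumor sample and sort and compared with edgeR's quasi-likelihood test, two-sided, with tumor sample as a block and Benjamini-Hochberg adjustment over 18428 genes. Over all genes tested 46.2% were called at an adjusted p of 0.05 (20.4% higher and 25.7% lower in CD45+), so 3 calls among 9 ligands tested were not more than this background share. Without TMM scaling the median log2 change of all genes moved from -0.04 to -0.40, and the share of calls that were higher in CD45+ moved from 44.3% to 28.3%. The 3 pairs of sums are the only replicates, and in such sums fewer cells of a type and less RNA per cell cannot be told apart.

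Tgfa, which encodes TGFα, stood at 61.7, 27.7 and 38.2 UPM in the early, medium and late CD45+ sums and at 124, 146 and 138 UPM in the CD45- sums. The sorts did not overlap, and the medium pair lay furthest apart. The log2 change, CD45+ over CD45-, was -1.38 ± 0.27 (SE, n = 3 pairs, edgeR adjusted p = 0.00525), with the CD45- sum higher in 3 of 3 samples. Over the single libraries, CD45+ ran from 0 UMIs to 74.6 UPM and CD45- from 110 to 177 UPM, so no library of one sort reached the other in any run. Without the cells that share barcodes the log2 change was -1.39 (adjusted p = 0.00323).

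Areg, the gene of amphiregulin, stood at 4.53, 9.18 and 45.1 UPM in the early, medium and late CD45+ sums. In the CD45- sums it stood at 0.247 and 1.33 UPM in the early and late samples (2 and 14 UMIs), and no UMI was found in the medium sample, which allows up to 0.457 UPM. The groups did not overlap, and the late CD45+ sum stood above the others. The fitted log2 change was 5.53 ± 0.52 (SE, n = 3 pairs, edgeR adjusted p = 0.000221), and it was 5.47 (adjusted p = 0.000132) without shared barcodes. This fitted value depends on the prior count, since 1 sum was at 0.

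Nrg3, the gene of a neuregulin of neural tissue, rested on 63 UMIs in kept cells, 10 of them in CD45+ cells. Its sums were at 0.370, 0.206 and 0.745 UPM in CD45+ and at 2.23, 2.28 and 1.90 UPM in CD45- cells of the early, medium and late samples. The sorts did not overlap, and the log2 change was -2.02 ± 0.57 (SE, n = 3 pairs, edgeR adjusted p = 0.0232). The call was lost with DESeq2 (adjusted p = 0.0556) and when the early (0.109) or the medium sample (0.104) was left out in the edgeR fit, and the log2 change was -1.76 (adjusted p = 0.0403) without shared barcodes.

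Hbegf, which encodes a heparin-binding ligand, differed in direction between the samples. It stood at 42.3, 27.2 and 50.7 UPM in the early, medium and late CD45+ sums, against 18.9, 88.2 and 126 UPM in the CD45- sums. The early sample was higher in CD45+ cells and the other samples were lower, and the sorts overlapped. The log2 change was -0.31 ± 0.53 (SE, n = 3 pairs, edgeR adjusted p = 0.668). It was -1.06 (adjusted p = 0.0131) without the early sample, 0.22 without the medium sample and 0.09 without the late sample. With glioma-like and unnamed clusters left out of the sums it was 0.91 (adjusted p = 0.104).

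The other ligands were scarce. Btc had 112 UMIs, Egf 103, Nrg1 98, Nrg2 86 and Nrg4 304 in all kept cells. Their sums ran from 0.370 to 9.59 UPM, with CD45- higher in 3 of 3 samples for Btc, Nrg1, Nrg2 and Nrg4 and in 2 of 3 for Egf. Their log2 changes were -1.31 for Btc (edgeR adjusted p = 0.0625), 0.05 for Egf (0.935), -1.23 for Nrg1 (0.134), -0.67 for Nrg2 (0.290) and -0.33 for Nrg4 (0.397). Btc passed the threshold under other settings, with an edgeR adjusted p of 0.0248 without TMM scaling and 0.0298 without run 3. Nrg1 was called without TMM scaling only, and Egf changed sign under 6 settings.

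**Figure D1:**
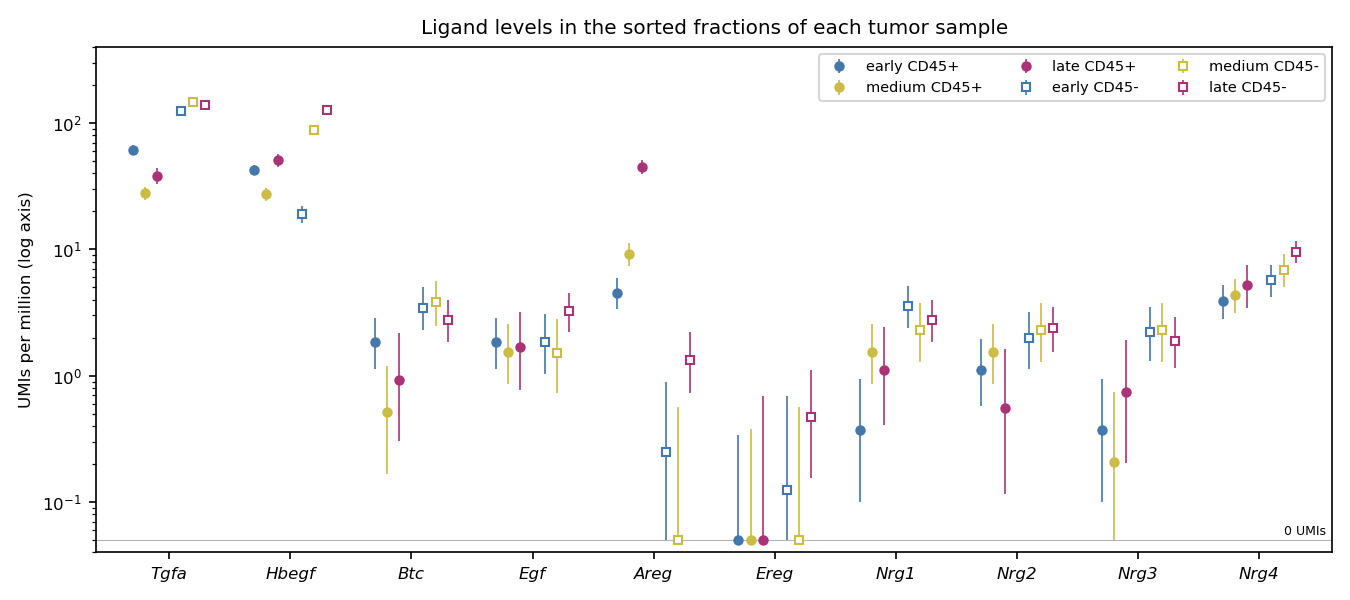
Level of each ligand in UPM (log axis) in the CD45+ sums (filled circles) and CD45- sums (open squares) of the early, medium and late tumor samples, with exact Poisson 95% intervals that cover counting error only; points on the lowest line had 0 UMIs. Tgfa lay at 124 to 146 in CD45- against 27.7 to 61.7 in CD45+ sums, and Areg at 4.53 to 45.1 in CD45+ against at most 1.33 in CD45- sums.

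The next question was which cells carried each ligand. Cells were clustered without the ligands, their receptors and the transgenes, and a cluster was named after the class whose markers were found among its leading genes or, where none was, after the class with the largest share of its markers raised. The result was 29 clusters and 16 named classes, written here as oligodendrocyte-like and so on because they rest on RNA markers alone. Marker support differed between the classes. In the leading clusters of these names 8 of 8 oligodendrocyte, astrocyte and T cell markers and 7 of 8 microglial markers were raised. So were 7 of 7 border or perivascular macrophage and endothelial markers. Each macrophage or monocyte-like cluster raised only 3 of 8 markers. The dendritic-like cluster, the neutrophil-like cluster led by Elane and the microglia-like cluster led by Cnbd2 raised 4 of 8 each. Of the named clusters 5 had no marker of their class among their 10 leading genes: 3 microglia-like clusters led by Tnf and Gpr84, by Cnbd2 and Cep85 and by Gm45551 and Gm9973, a macrophage or monocyte-like cluster led by Cxcl9, and a neutrophil-like cluster led by Elane. Immune genes such as Tnf, Il1a, Cxcl13 and Cxcl9 stood among those leading genes. Glioma-like cells and oligodendrocyte progenitors could not be separated by the markers and form 1 class of 1215 cells, of which 743 held a human EGFR UMI. Class levels are means ± SD over the tumor samples with at least 20 cells of the class (n = 3 unless stated), described without a test.

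Among the named classes Tgfa was highest in the glioma or progenitor-like class, next in the oligodendrocyte-like class and then in the microglia-like class. In glioma or progenitor-like cells it stood, in order of stage from early to late, at 310, 242 and 315 UPM (289 ± 40.5), and in oligodendrocyte-like cells, the myelinating glia, at 183, 227 and 234 UPM (215 ± 27.8). Microglia-like cells, the resident macrophages of brain, were at 74.1, 52.6 and 69.6 UPM (65.5 ± 11.4). An unnamed cluster of 95 cells, led by Gm10717 and Gm26870, stood at 13.8, 344 and 254 UPM on 1, 27 and 23 UMIs in the same order, so its medium sample lay above the glioma class. The glioma and oligodendrocyte ranges did not overlap each other or the microglial range, while the microglial range overlapped that of endothelial-like cells (40.3 ± 24.2). At a finer clustering a cluster of 334 cells, 91.6% of them with a human EGFR UMI, took the name of committed oligodendrocyte progenitors, a class that no cluster had been given before. Tgfa stood in it at 325 and 437 UPM in the medium and late samples (381 ± 79.4, n = 2), above the 202 ± 89.9 UPM of the glioma or progenitor-like class drawn there and the 215 ± 27.6 UPM of the oligodendrocyte-like class. The order of the glioma and oligodendrocyte classes therefore rests on how clusters were drawn.

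Of all Tgfa UMIs 36.5% were in oligodendrocyte-like, 34.0% in glioma or progenitor-like and 19.4% in microglia-like cells. The remaining classes with values in every sample ran from choroid plexus-like (39.3 ± 22.5 UPM), astrocyte-like (31.2 ± 32.1) and neuron-like cells (28.4 ± 5.75) down to dendritic-like cells (1.94 ± 3.35), and each overlapped its neighbour in this order. T cell-like cells were at 9.43 ± 5.07 UPM. Macrophage or monocyte-like cells stood at 18.3 ± 10.3 UPM, with a highest sample of 29.4 UPM, below the lowest microglial sample of 52.6 UPM. At the finer clustering the macrophage or monocyte-like class held 1103 cells in place of 2311, and its Tgfa level was 13.7 ± 4.90 UPM. The 3 microglia-like clusters without a leading microglial marker stood at 55.2 ± 2.87, 43.3 ± 35.0 and 76.7 ± 16.6 UPM, and the other microglia-like clusters at 61.3 ± 24.7 and 69.3 ± 26.9 UPM, all overlapping. Without shared barcodes the glioma, oligodendrocyte and microglial means were 273.7, 213.9 and 67.1 UPM.

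The oligodendrocyte-like class was made of 2 clusters, and Tgfa differed between them. In the cluster led by Klk6 and Hapln2, genes of mature oligodendrocytes, Tgfa stood at 203, 262 and 305 UPM in the early, medium and late samples. In the cluster led by Opalin it stood at 167, 193 and 182 UPM, below the Klk6 cluster in 3 of 3 samples. Within the class as a whole, the runs gave 168 to 244 UPM in the early, 208 to 256 UPM in the medium and 207 to 308 UPM in the late sample. These ranges overlap, so the step from 183 UPM in the early to 234 UPM in the late sample, with 1 sample each, is not separate from the spread between runs.

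In glioma or progenitor-like cells Tgfa was present with and without a transgene UMI. The 185 early cells of this class held no UMI of human EGFR or iCre, and their Tgfa level was 310 UPM (95% interval 262 to 364). In the medium sample cells with a transgene UMI stood at 253 UPM (95% interval 229 to 279). Those without stood at 192 UPM (148 to 244). In the late sample the levels were 326 UPM (304 to 348) and 226 UPM (178 to 284). Only the medium intervals overlapped. Cells without a transgene UMI were shallower, with 339406 UMIs in 115 medium cells against 1620745 UMIs in 286 cells that held one. The late counts were 327136 UMIs in 153 cells against 2615561 in 476. A transgene UMI is more easily missed in shallow cells, so those without one may include carriers. A human TGFA transgene row held 3 UMIs in all kept cells. The early cells of this class are therefore glioma or progenitor-like by markers only.

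The share of cells with a Tgfa UMI put the glioma, oligodendrocyte and microglial classes in the same order as their levels. With every cell thinned to 1000 UMIs, 19.6% of 1164 glioma or progenitor-like cells, 14.7% of 2749 oligodendrocyte-like cells and 5.33% of 5961 microglia-like cells held one (exact 95% intervals 17.3 to 22.0, 13.4 to 16.1 and 4.78 to 5.94). In T cell-like cells, taken as a class that should lack the gene, the share was 0.974% of 821 cells (0.422 to 1.91). Cells with fewer than 1000 UMIs were left out, 51, 49, 160 and 29 of these classes. Unthinned shares were 44.4%, 28.2%, 9.07% and 1.65%, at median depths of 3097, 2453.5, 1900 and 1879 UMIs.

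Microglia-like cells held Tgfa in another proportion to oligodendrocyte markers than oligodendrocyte-like cells did. Per 100 UMIs of 8 oligodendrocyte markers they held 146, 190 and 203 Tgfa UMIs in the early, medium and late samples, against 1.25, 1.53 and 1.43 in oligodendrocyte-like cells. Per 100 UMIs of the glioma or progenitor markers they held 1165, 825 and 847 Tgfa UMIs, against 3.31, 5.25 and 8.33 in the glioma or progenitor-like class. High ratios to oligodendrocyte markers were not particular to microglia-like cells. Macrophage or monocyte-like cells held 145, 64.0 and 58.6 Tgfa UMIs per 100 of these marker UMIs in the same order of samples. T cell-like cells held 19.0, 140 and 40, on 4, 14 and 2 Tgfa UMIs. In endothelial-like cells the ratio to oligodendrocyte markers was 2.11, 4.05 and 29.4, on 11, 7 and 15 Tgfa UMIs. The part of free RNA in the microglial and endothelial Tgfa levels was not tested.

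Hbegf had a different order of classes. Astrocyte-like cells, the glia that line vessels and synapses, stood at 123, 136 and 205 UPM in the early, medium and late samples (154 ± 44.0), above every sample of the other named classes. Endothelial-like cells followed with 91.4, 74.2 and 118 UPM (94.4 ± 21.8), and border or perivascular macrophage-like cells, which lie around vessels and in the meninges, with 87.9, 71.6 and 107 UPM (88.8 ± 17.6). Both of these overlapped each other, and both overlapped glioma or progenitor-like cells (60.9 ± 12.6, up to 74.5 UPM), the endothelial-like cells only just. The astrocyte values rest on 55 UMIs in 175 cells, and the late one on 9 UMIs in 28 cells (95% interval 93.6 to 389). When each cell was classed by its own marker scores, fibroblast-like cells were at 189.6 UPM in place of 45.1 ± 43.2, next to 194.7 UPM in astrocyte-like cells. At the finer clustering the glioma or progenitor-like class was at 58.7, 207 and 40.03 UPM (102 ± 91.8), so its medium sample reached the astrocyte range of 123 to 208 UPM there, as did the late endothelial-like sample at 141 UPM. The lead of astrocytes depends on these choices. Without shared barcodes the means were 168.8, 96.7 and 93.4 UPM for astrocyte-like, endothelial-like and border macrophage-like cells.

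Oligodendrocyte-like cells, high in Tgfa, held little Hbegf, at 2.67, 5.84 and 7.42 UPM (5.31 ± 2.42). Microglia-like cells stood at 45.1, 15.9 and 39.2 UPM, which was 33.4 ± 15.4 UPM, and macrophage or monocyte-like cells at 27.1 ± 15.1 UPM. Dendritic-like cells ran from 19.8 UPM in the early to 110 UPM in the late sample, on 5 and 19 UMIs, but at the finer clustering the class held 4 UMIs in 266 cells (6.49 ± 9.09 UPM), so this value depends on which cells were counted in. With clusters drawn more finely, the endothelial-like class separated from pericytes, and Hbegf was 110.4 ± 27.4 UPM in the former and 54.2 ± 23.6 UPM in pericyte or smooth muscle-like cells. Thinned shares of cells with an Hbegf UMI were 10.1% for astrocyte-like (exact 95% interval 5.90 to 15.9), 7.16% for endothelial-like (4.95 to 9.96) and 5.50% for border macrophage-like cells (3.52 to 8.14). They were 0.487% for T cell-like (0.133 to 1.24) and 0.400% for oligodendrocyte-like cells (0.1999 to 0.715), and unthinned shares in the same order of 5 classes were 14.3%, 9.04%, 9.47%, 0.824% and 1.18%.

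Most Hbegf UMIs, 55.9%, were in clusters that took no name. One of them held 583 cells, 567 from the late sample, with human EGFR in 88.7% of its cells, and Itga8, Thbs2 and Tinagl1 led it. Its late cells stood at 295 UPM Hbegf and 3.92 UPM Tgfa. Its few early and medium cells stood at 571 UPM Hbegf (5 cells, 14 UMIs) and 289 UPM Hbegf (11 cells, 22 UMIs). Another held 207 cells, 206 from the medium sample, with human EGFR in 84.1%, and was at 395 UPM Hbegf and 10.7 UPM Tgfa. Each was nearly all 1 tumor sample, so a cell state and a sample cannot be told apart here. In the sums, leaving out these clusters and the glioma-like class moved the Hbegf log2 change from -0.31 to 0.91 and that of Tgfa from -1.38 to -1.55.

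Areg was found in T cell-like cells, which held 73.7% of its 396 UMIs. No cluster took the name of natural killer cells, though they were among the marker classes, so the T cell-like class may hold such cells. Other lymphocytes without a marker list, such as innate lymphoid cells, may be held in it as well. The Areg level of T cell-like cells was 32.4, 52.3 and 795 UPM in the early, medium and late samples (293 ± 435), with the late sample far above the others. Without the late sample the mean was 42.4 UPM. The runs of the late sample gave 709 and 862 UPM in 54 and 63 cells. Macrophage or monocyte-like (8.53 ± 2.30 UPM) and dendritic-like cells (8.16 ± 3.27 UPM) followed among the classes with 3 samples. No UMI was found in glioma or progenitor-like, oligodendrocyte-like, astrocyte-like, endothelial-like, fibroblast-like, choroid plexus-like or neuron-like cells (0 of 2798 oligodendrocyte-like cells, which allows a share of up to 0.107% of cells with a UMI at this depth and sets no limit on cells that express the gene). The unnamed cluster of 583 cells led by Itga8, with human EGFR in 88.7% of its cells, held 15 Areg UMIs. Its late cells stood at 3.43 UPM Areg, on 14 UMIs.

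In the late sample 222 Areg UMIs came from 26 of 119 T cell-like cells. The highest cell held 59 UMIs, and the 10 highest held 81.5%. The level was 596 UPM without the highest cell and 167 UPM without the 10 highest, against 32.4 and 52.3 UPM in the whole early and medium samples. Of the late cells with an Areg UMI 96.2% also held a Gata3 UMI, against 36.6% of the other late T cell-like cells, and 50% held Il1rl1, the gene of the IL-33 receptor, against 10.8%. Foxp3, the transcription factor of regulatory T cells, was found in 3.85% and 3.23%, and Cd4 in 42.3% and 26.9%. The medium sample had another pattern: of its 24 cells with an Areg UMI 29.2% held Foxp3, against 4.12% of the other T cell-like cells, while Gata3 was found in 20.8% and 13.7%, Il1rl1 in 4.17% and 0.773% and Cd4 in 33.3% and 20.1%. In the early sample 6 cells held Areg, of which 50% held Gata3 and 0% Foxp3, against 10.2% and 1.28% of the other early T cell-like cells. Gata3, a transcription factor of type 2 lymphocytes, Il1rl1 and the other genes of these shares were chosen after values were seen. In the late sample cells with an Areg UMI were somewhat deeper than the rest, with median depths of 2248 and 1743 UMIs. Cd3e, a T cell receptor subunit, was found there in 26.9% and 21.5%, and Cd8a in 0% and 17.2%. Thinned, 4.14% of 821 T cell-like cells held an Areg UMI (exact 95% interval 2.88 to 5.74), against 6.59% unthinned and 0.067% of microglia-like cells thinned.

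**Figure D2:**
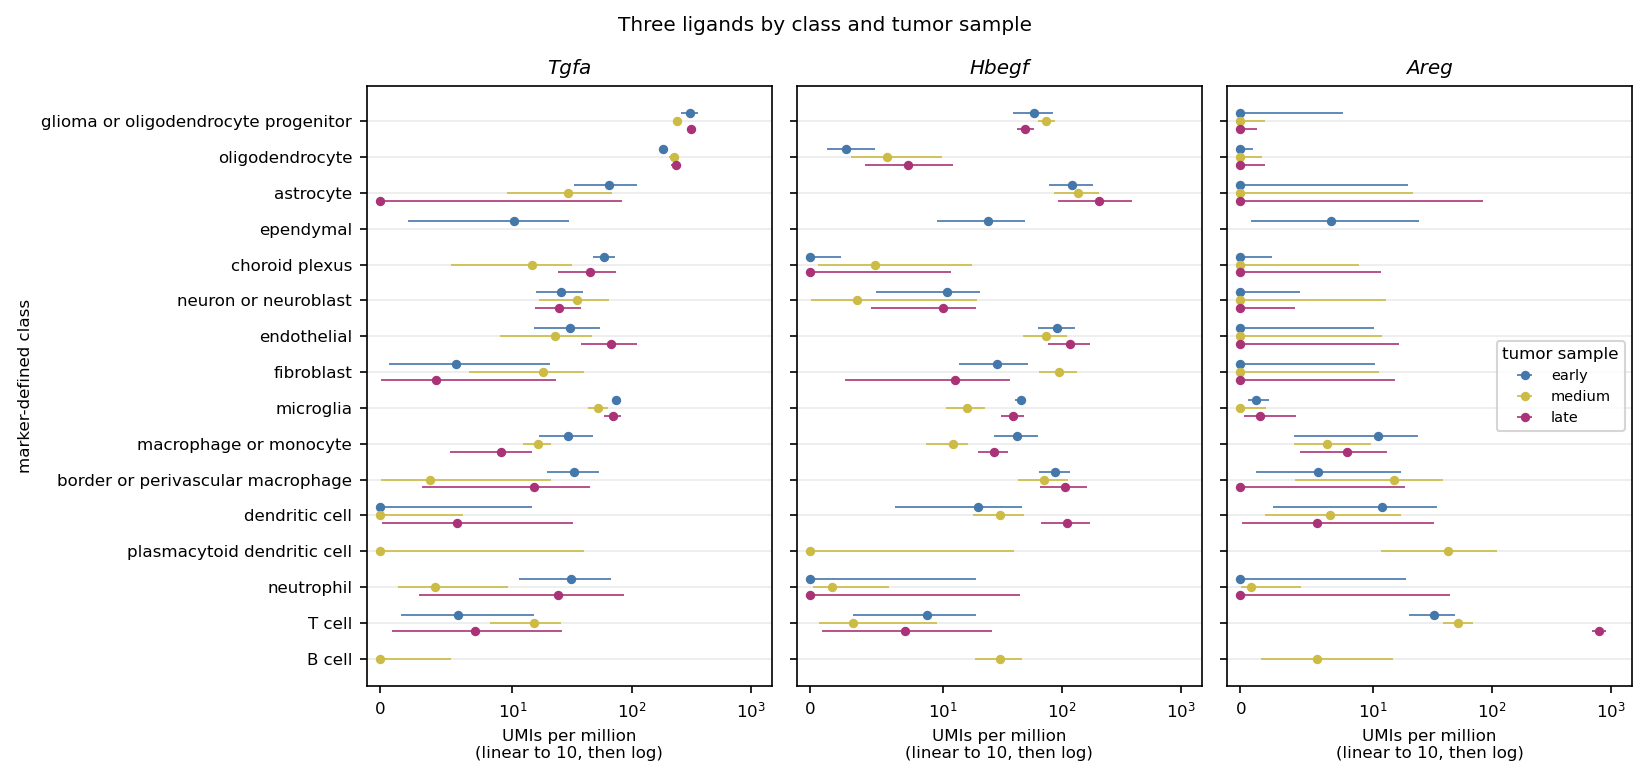
Tgfa, Hbegf and Areg levels in UPM (linear to 10, then log) in each marker-defined class, with 1 point for each of the early, medium and late tumor samples that had at least 20 cells of the class and exact Poisson 95% intervals for counting error. Of these classes, Tgfa was highest in glioma or progenitor and oligodendrocyte cells, at 183 to 315. Hbegf was highest in astrocytes, at 123 to 205, and Areg in the late T cell-like cells, at 795. Unnamed clusters, which held 55.9% of Hbegf UMIs at a mean of 230 UPM, are not drawn.

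The neuregulins and the remaining ligands were spread over more classes on few UMIs. Nrg3 was highest in neuron-like cells at 10.9, 31.5 and 13.5 UPM (18.6 ± 11.2), and these held 47.6% of its 63 UMIs. This range lay above the 6.81 UPM of ependymal-like cells, which had 1 sample and 2 UMIs, and above the 2.76 ± 1.24 UPM of glioma or progenitor-like cells. Of the neuron-like cells 346 were in the CD45- and 45 in the CD45+ sort. Nrg1, a ligand of ERBB3 and ERBB4, had 40.8% of its 98 UMIs in glioma or progenitor-like cells at 10.5, 7.65 and 6.80 UPM (8.31 ± 1.92) and 22.4% in neuron-like cells (11.03 ± 5.69 UPM). No Nrg1 UMI was found in 6121 microglia-like or 498 endothelial-like cells, and the dendritic-like class held 11 UMIs (11.1 ± 6.77 UPM). The highest means rested on fewer UMIs: 17.03 UPM in ependymal-like cells (1 sample, 5 UMIs), 16.9 ± 24.9 UPM in astrocyte-like (3 UMIs) and 13.4 ± 19.8 UPM in neutrophil-like cells (8 UMIs). The ranges of these classes with 3 samples overlapped.

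Nrg2 was at 7.34 ± 3.87 UPM in neuron-like, 6.81 ± 1.50 UPM in border or perivascular macrophage-like and 4.42 ± 1.62 UPM in glioma or progenitor-like cells, all overlapping. Nrg4 was found in nearly every class, with its highest means in astrocyte-like (15.5 ± 13.4 UPM, 5 UMIs) and neutrophil-like cells (13.6 ± 9.66 UPM, 17 UMIs), and was at 10.3 ± 3.13 UPM in glioma or progenitor-like, 9.64 ± 4.29 UPM in T cell-like and 4.37 ± 1.24 UPM in microglia-like cells, with neighbours in the order overlapping throughout. Btc had 29.5% of its UMIs in oligodendrocyte-like cells (4.18 ± 0.70 UPM) and stood highest on average in astrocyte-like cells (11.1 ± 11.4 UPM, 3 UMIs). Egf was at 5.42 ± 1.70 UPM in neuron-like and 2.29 ± 1.02 UPM in oligodendrocyte-like cells, and its highest mean, 9.44 ± 7.64 UPM in neutrophil-like cells, rested on 5 UMIs. Ereg had 1 UMI in each of the glioma or progenitor-like and oligodendrocyte-like classes and 4 in unnamed clusters. At these counts the classes cannot be ordered for Btc, Egf, Nrg2 and Nrg4.

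**Figure D3:**
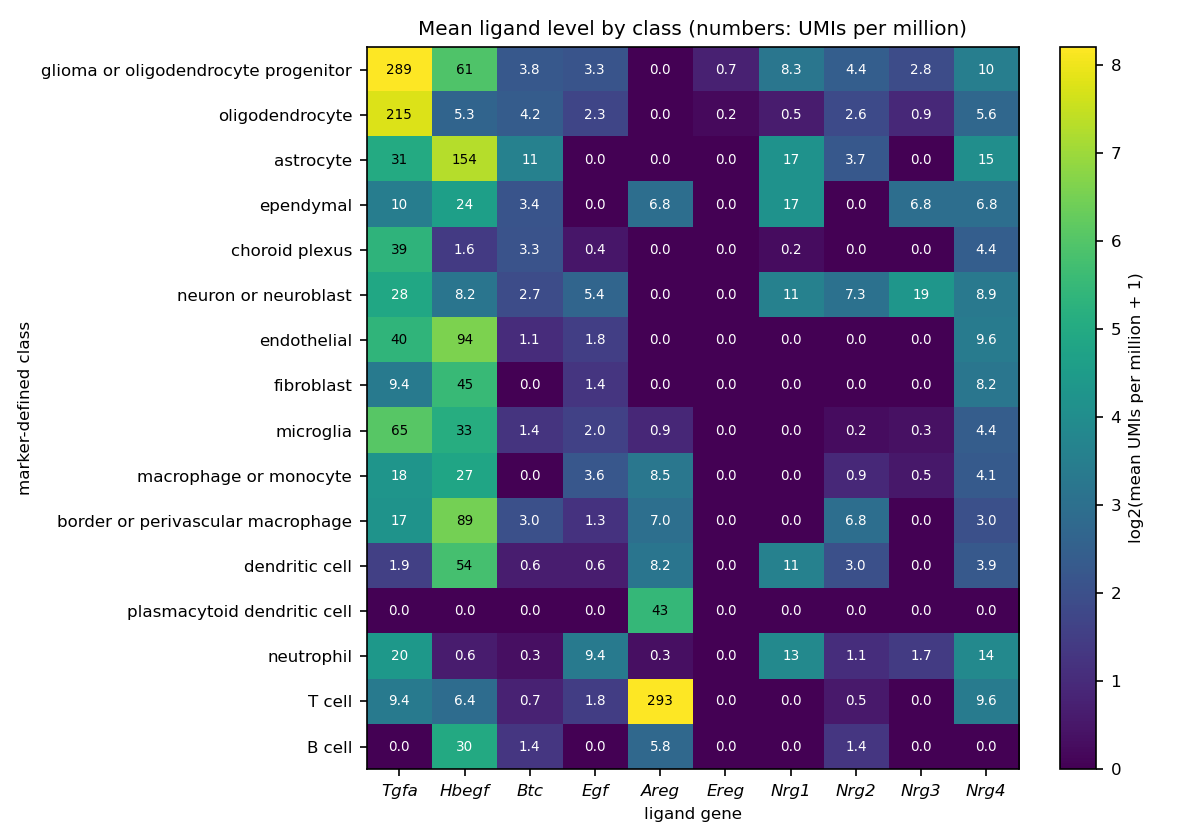
Mean level of each ligand in the 16 marker-defined classes, printed in UPM and coloured by log2(mean + 1). Means are over the tumor samples with at least 20 cells of the class, so the ependymal (early), plasmacytoid dendritic and B cell (both medium) rows show 1 sample each. Tgfa reached 289 in glioma or progenitor and 215 in oligodendrocyte cells, Hbegf 154 in astrocytes, Areg 293 in T cells and Nrg3 19 in neurons. Unnamed clusters, with Hbegf at a mean of 230, are not drawn.

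The genes most like each ligand in their class means were found by Pearson's r of log2(mean UPM + 1) over the 16 classes among 11335 genes, as a description, since classes share libraries and differ in depth. They were Samd8 (r = 0.907), Tmem9b (0.905) and Fam210a (0.887) for Tgfa, and Adamts9 (0.836), Kdelr2 (0.801) and Ppan (0.791) for Hbegf. For Areg they were Gm12038 (0.857), Rps24-ps3 (0.856) and Gm10036 (0.851), rows that can share reads with near-identical ribosomal protein genes and are uncertain. Dtna (0.856), 1700066M21Rik (0.856) and Mrs2 (0.831) were most like Btc, and Sfxn5 (0.910), Mcm9 (0.899) and Zcchc8 (0.895) most like Nrg4. For Egf they were Lcor (0.847), Gm47578 (0.831) and Zdhhc3 (0.809).

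The receptors were then set beside the ligands. Of the 4 ERBB receptors 3 were lower in CD45+ cells, Erbb2 (log2 change -2.46), Erbb3 (-3.47) and Erbb4 (-4.12), with edgeR adjusted p of 0.00224, 0.000750 and 0.000282, and the median over the 4 was -2.97 against -0.04 over all genes. The background share of genes lower in CD45+ was 25.7%, and over so few receptors this is a description. Mouse Egfr was at 6.91 to 10.5 UPM in CD45+ and 16.5 to 23.9 UPM in CD45- sums (log2 change -0.73, edgeR adjusted p = 0.0703), and it was called under 5 other settings. Egfr stood highest in fibroblast-like cells at 169, 231 and 122 UPM (174 ± 54.7) and in astrocyte-like cells at 112, 64.9 and 182 UPM (120 ± 58.9). These ranges overlapped, and neuron-like cells followed at 48.5 ± 7.0 UPM.

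Erbb3, a receptor of neuregulins, had its highest mean among named classes in oligodendrocyte-like cells at 100.0, 91.2 and 115 UPM (102 ± 11.96), the class that held little Nrg1 (0.533 ± 0.924 UPM). Glioma or progenitor-like cells followed at 60.7, 111 and 39.8 UPM (70.4 ± 36.4), and their medium sample overlapped the oligodendrocyte range. Most Erbb3 UMIs, 1643 of 2871, were in the clusters that took no name, which stood at 9.15, 237 and 291 UPM in the early, medium and late samples. Erbb4 was at 53.6 ± 54.5 UPM in neuron-like, 44.5 ± 10.7 UPM in oligodendrocyte-like and 42.8 ± 26.5 UPM in glioma or progenitor-like cells, all overlapping. Human EGFR stood at 2488 and 2579 UPM in the medium and late glioma or progenitor-like cells and at 0 UMIs in the early ones, which allows up to 6.28 UPM. Oligodendrocyte-like cells held Tgfa at 215 UPM with mouse Egfr at 5.33, 8.98 and 3.96 UPM in the early, medium and late samples. Erbb2 was scarce, with 181 UMIs in all, 133 of them in unnamed clusters.

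**Figure D4:**
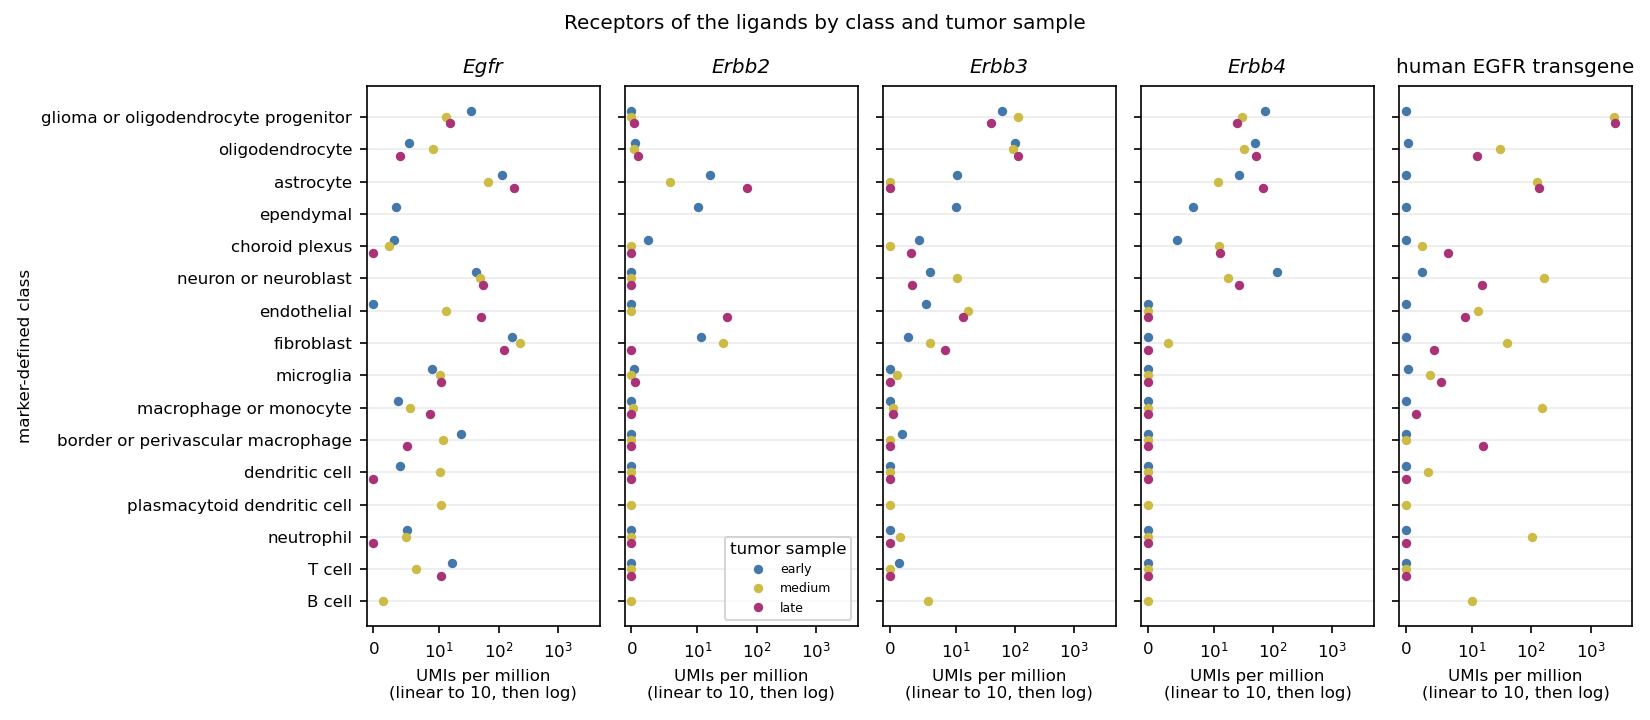
Levels of Egfr, Erbb2, Erbb3, Erbb4 and the human EGFR transgene in UPM (linear to 10, then log) by marker-defined class, 1 point for each tumor sample with at least 20 cells of the class. Of these named classes, Egfr had its highest means in fibroblasts (122 to 231) and astrocytes (64.9 to 182), Erbb3 in oligodendrocytes (91.2 to 115, overlapped by glioma or progenitor cells at 39.8 to 111), and human EGFR in glioma or progenitor cells (0 in the early sample); unnamed clusters, with Erbb3 at up to 291, are not drawn.

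Of 9 ligand-processing genes 5 were called, 2 higher and 3 lower in CD45+ cells, with a median log2 change of -0.69. This share was near the 46.2% called over all genes, so it is no result about the list. Adam17, the main sheddase of TGFα and amphiregulin, was higher in CD45+ cells (log2 change 1.23, edgeR adjusted p = 0.00449), as was Rhbdf2, an iRhom that carries ADAM17 to the surface (2.70, adjusted p = 0.00133). Rhbdf1, the related gene of the list, went the other way and was not called (-0.96, edgeR adjusted p = 0.0870), with CD45+ higher in 0 of 3 pairs. Bace1 (-2.33), a protease of neuregulins, Rhbdl2 (-1.55) and Adam9 (-0.69) were lower, the last losing its call under 4 settings. By class, Adam17 stood at 198 ± 32.5 UPM in macrophage or monocyte-like and 158 ± 4.6 UPM in microglia-like cells, and Bace1 at 170 ± 24.5 UPM in oligodendrocyte-like cells.

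Of 4 other EGF-domain proteins of the family 3 were tested and all 3 were lower in CD45+ cells. Their median log2 change was -4.33, beside 25.7% of all genes lower. Epgn, with 2 UMIs in all kept cells, was not tested. Cspg5 (-2.60), which encodes neuroglycan C, was at 2021 ± 1085 UPM in glioma or progenitor-like and 1194 ± 215 UPM in astrocyte-like cells. Tmeff1 (-4.53) and Tmeff2 (-4.33) stood at 469 ± 31.3 and 446 ± 61.4 UPM in oligodendrocyte-like cells. Of 8 genes of feedback on ERBB signalling 4 were called, all lower in CD45+ cells (25.7% of all genes were lower and 46.2% called), with a median of -1.06: Lrig1 (-2.02), Spry1 (-1.49), Spry2 (-1.73) and Spry4 (-2.82). The share called was near the 46.2% called over all genes, so it is no result about the list. Dusp6 (0.87, edgeR adjusted p = 0.190) and Errfi1 (0.34, 0.245) went the other way and were not called. Lrig1, which lowers the level of EGFR, stood at 313 ± 32.1 UPM in astrocyte-like cells. Spry1 lost its call under 4 settings, among them without the medium or the late sample. For the ligands themselves the median log2 change over the 9 tested was -0.67.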

How the data were processed

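The values deposited by the authors are raw UMI counts for every gene in each cell of the inDrop libraries, not normalized. Per the study's methods and the labels, the authors mapped reads with RapMap in bcbio-nextgen to the GRCm38 transcriptome (mm10 in the submitters' processing notes) with transgene sequences added, and called cells against empty droplets. They also describe removal of ambient RNA and doublets, without saying whether this preceded the table. The deposited library annotation holds text of another kind (unit: other), from which run, barcode, sort and stage were taken; the 3 samples in the database are runs that mix stages and sorts. No column was left unmapped. Not every allele of the model is reported here. The ligands, gene lists and markers were chosen with earlier results of these data known.

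Cells with at least 500 UMIs, at least 500 genes and at most 20% mitochondrial UMIs were kept (17894 of 20811), and Scrublet doublets were removed (139 of 17786 tested, expected rate 6%), which left 17755. Cells were clustered in scanpy 1.11.5 (2000 variable genes, 40 components, 20 neighbours, Leiden resolution 1, seed 1) without the ligands, the other gene lists and the transgenes. A cluster needed at least 3 markers of a class raised 2-fold and present in 10% of its cells. Among the classes that met this it took the one with most markers among its 10 leading genes and, where these were equal or 0, the one with the largest share of its markers raised. This was the last of 3 naming rules tried, each set after the cluster names were seen and before ligand levels by class were seen; 2 of 29 clusters took another name under the other rules.

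Counts were summed per tumor sample and sort and tested with edgeR 4.0.16 (quasi-likelihood, robust, TMM, filterByExpr, tumor sample as block; R 4.3.3), as a two-sided test, called at 0.05 after Benjamini-Hochberg adjustment. DESeq2 1.42.0 was an alternative. Sums of the same tumor deviated together (correlations of deviations from the sort means 0.387, 0.285 and 0.305, against -0.27 to 0.021 for different tumors). Deviations from a sort mean add to 0, which by itself pushes the correlations between different tumors down, so this contrast is no independent support. The pairing comes from the same tumor sample being sorted. On counts simulated for this comparison over 18428 genes the test recovered 98 of 100 genes changed by 3 on the log2 scale and 41 of 100 changed by 1, with 2.8% false calls. These counts were drawn with the same dispersion for every gene and without a tumor effect. The changed genes were few and were not drawn among the scarcest. The rates therefore need not hold for the real sums or for scarce ligands such as Nrg3. Intervals are exact at 95% (Poisson for levels, Clopper-Pearson for shares), cover counting error only, and a count of 0 was read as at most 3 UMIs of the total. All 10 ligands were named, with every gene of the 4 other lists open to naming; for each ligand with at least 100 UMIs the 3 most similar genes with at least 500 UMIs were named.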

Additional observations from a re-analysis of the deposited data

Results flagged for a closer look

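The level of Hbegf in 1 of the 4 libraries of the early CD45+ sample stood apart from the other libraries. In the library of run 1 it was 105 UPM, from 38 UMIs in 132 cells, against 34.48 to 45.63 UPM in the others, a gap above Dixon's 95% limit. This check over libraries was added after the data were seen. Libraries are technical repeats of 1 tumor sample, 17 sets of 4 libraries were examined, and chance marks about 1 in 20. The early CD45+ sum of 42.3 UPM includes this library. No test of a difference between stages was possible, since each stage had 1 tumor sample.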

How the results depend on the processing

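The number of genes called between the sorts was 8506 and stayed within 1.5 times of that in all 16 other settings: 6866 to 7207 when a tumor sample was left out, 8078 with DESeq2, 9384 with every gene tested and 9153 without TMM scaling. With no replicate block it was 7857, and leaving out the block ended no call among the ligands. The Tgfa and Areg calls held in every setting, with log2 changes of -1.75 to -1.10 and 5.16 to 7.03, and the Nrg3 call was lost in 3 settings (with DESeq2 and without the early or medium sample). Signs changed only for genes that were not called under the main setting, and the cause was not tested. Hbegf was at 0.22 without replicate 2 (medium) and 0.09 without replicate 3 (late), within a range of -1.06 to 0.22 over the replicates left out, and at 0.91 without glioma-like and unnamed clusters. Egf went to -0.31 without TMM scaling, -0.01 with no replicate block, -0.04 without replicate 1, -0.14 without replicate 2 (highest without a replicate, 0.38), -0.06 with every deposited cell and -0.10 without run 1. Adam19 (main value -0.02) was at 0.03 with DESeq2, 0.04 with no replicate block, 0.14 without replicate 1, 0.19 without replicate 3 (lowest without a replicate, -0.33), 0.04 with every deposited cell, 0.01 with doublets kept, 0.05 without shared barcodes, 0.02 without run 1 and 0.11 without run 3. Without glioma-like and unnamed clusters Adam12 was at 0.05, Rhbdf1 at 0.06 and Errfi1 at -0.11, and Errfi1 was at -0.03 without TMM scaling.

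Class levels moved by less than their SD in 519 of 555 cases. Part of this count was fixed in advance. Leaving out a tumor sample cannot move a mean over 3 samples by its SD, so those cases could only count as unmoved. The fall of Areg in T cells without the late sample is among them. Classes with 1 sample have no SD and were always counted as moved. For the 6 ligand and class pairs described most closely (Tgfa in oligodendrocytes and microglia, Hbegf in astrocytes, endothelium and border macrophages, Areg in T cells), which were picked after their levels were seen, 1 value moved further: Hbegf in border macrophages was 65.17 UPM when each cell was classed by its own marker scores, against 88.8. Without thinning, the shares of cells with a UMI moved to 28.23% (Tgfa, oligodendrocytes), 9.067% (Tgfa, microglia), 9.469% (Hbegf, border macrophages) and 6.588% (Areg, T cells). When clusters were named by median fold, endothelial cells had too few cells left for a value. Areg in T cells had a mean of 42.35 UPM without the late sample and up to 423.5 UPM without another one, against 293. Glioma-like and unnamed clusters, the sort of single cells, shared barcodes and the other naming rules were settings added after the data were seen. Depth limits Btc, Egf, Ereg, Nrg1, Nrg2 and Nrg3 most, and 1 tumor sample per stage leaves all stage differences untested.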
